A study of Mus musculus with 12 samples.

Results

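The genes described here belong to the homeobox families Hox, Lhx, Nkx, Pax and sine oculis-related (here Six2, Six4 and Six5) and to the Gata, T-box (Tbx) and Sox families, which control the laying down of organs and cell types in the embryo. They were chosen by symbol, with earlier results of these data known. The rule took every liver row named Hoxa to Hoxd, Lhx, Nkx, Pax, Gata, Tbx, Sox or the sine oculis symbol, followed by a digit. Sox9 and Sox17 were left out by name. This gave 62 of the 17714 rows, 1 of which, Tbx3os2, is annotated as a long intergenic noncoding RNA gene that the symbol rule takes in. Of these, 31 had a mean of at least 5 normalized counts over the libraries and were tested, and 31 lay below that and are given as reads. The smallest mean inside the limit was 7.17 for Gata5, and the largest outside it were 4.02 for Gata1 and 3.42 for Hoxb7.

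RNA came from whole livers of female mice killed at weaning, at 3 weeks of age, 6 wild type (WT) and 6 without Lcorl in the whole body (KO), each an animal with its own number. The strain, and how the allele was made, are not stated in these sources. Normalized counts are reads divided by 1 factor per library. The test was limma, run on log2(normalized count + 1) for all 14336 genes that reached this mean, with p-values adjusted over all of them. A log2 fold change is KO minus WT on that log scale, so for genes with few reads it can differ from the log ratio of the means in size and even in sign.

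Polycomb repressive complexes keep developmental regulators silent in tissues that do not use them. Polycomb repressive complex 2 (PRC2) methylates histone H3 at such genes, many of which start in stretches rich in the dinucleotide CG, and Hox, Lhx, Pax, Gata, Tbx and Sox genes are textbook targets. Lcorl is a relative of the ligand dependent corepressor gene Lcor, and both loci also give rise to accessory subunits of PRC2, known as PALI proteins. The comparison of KO with WT livers therefore addressed whether genes of this class with reads in liver were higher without Lcorl. Every row held at least 2 reads, so family genes without a read in any liver are absent. Each tested gene had reads in every WT liver, so the test covers genes detected in WT liver and not fully silent ones. In liver some of these factors are in regular use: Gata4, Gata6, Sox7 and Sox18 in endothelium and other non-parenchymal cells, Lhx2 in stellate cells, Tbx3 in hepatocytes, and Gata1, Gata3, Tbx21 and Pax5 in blood cells.

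Depth was 21769795 to 28655120 reads for WT and 27692285 to 31296485 for KO. Lcorl itself was nearly absent from the KO livers: it stood at 275 ± 26.5 normalized counts (SD, n = 6) in WT, and the 6 KO libraries held 3 reads of it, all in KO 5, against 1594 reads in WT. Of 6 hepatocyte markers 0 passed the test, with summed levels of 3285800 to 3662500 in WT and 2901200 to 3727300 in KO. One library, WT 6, carried transcripts of fat tissue: the 6 fat markers summed to 242 normalized counts there and to between 5.10 and 28.0 in the other livers. KO 2 alone held the pancreatic transcript Reg1, at 126 normalized counts. Of the other pancreatic markers in the data, Ctrb1 was also highest in KO 2, at 26.7. Cel was at 0 there, and Cela1 was at 128, its lowest value of the 12 livers. The summed pancreatic markers came to 280 in KO 2, against 273 to 503 in WT and 131 to 213 in the other KO livers. In all livers but KO 2 this sum was nearly all Cela1, which was lower in KO (log2 fold change −1.12, limma adjusted p = 0.0053). Among these markers KO 2 was the highest liver for Reg1 and Ctrb1. The bile duct marker Krt19 was also highest there, at 301, against 39.5 to 83.9 elsewhere. The 6 bile duct markers summed to 2164 in KO 2, within the WT range of 1672 to 2454. For some of the results named here, the value without WT 6 or KO 2 is given.

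The developmental transcription factor genes were not shown to be higher as a class in the KO livers. Of the 31 tested, 0 rose, 1 fell and 30 did not pass the threshold of 0.05 (limma, Benjamini-Hochberg adjustment), where 1.67% of all tested genes rose, 2.57% fell and 4.25% did either. In genes these were 240 and 369, and with libraries scaled to equal upper quartiles 315 and 318, with the same 0 and 1 among the family genes. The median log2 fold change was 0.02 over the 31 genes and 0.01 over all 14336, with 19 of the 31 above 0 and 12 below, where 51.8% of all tested genes were above 0. At an unadjusted p under 0.05, 6 of 31 were higher and 3 lower, against 10.8% and 12.1% of all tested genes. edgeR called 0 higher and 1 lower, with 1.58% and 2.28% of all genes called. DESeq2 called 1 higher and 1 lower of the 34 it adjusted, with 3.92% and 4.76% of all genes called. The gene that fell was Lhx6, and the gene called higher by DESeq2 was Sox12. For 27 of the 31 genes the upper bound of the 95% interval of the log2 fold change lay under 1, a doubling, as it did for 92.9% of all tested genes. The 4 whose interval reached a doubling were Tbx3, Gata3, Pax5 and Gata5.

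**Figure D1:**
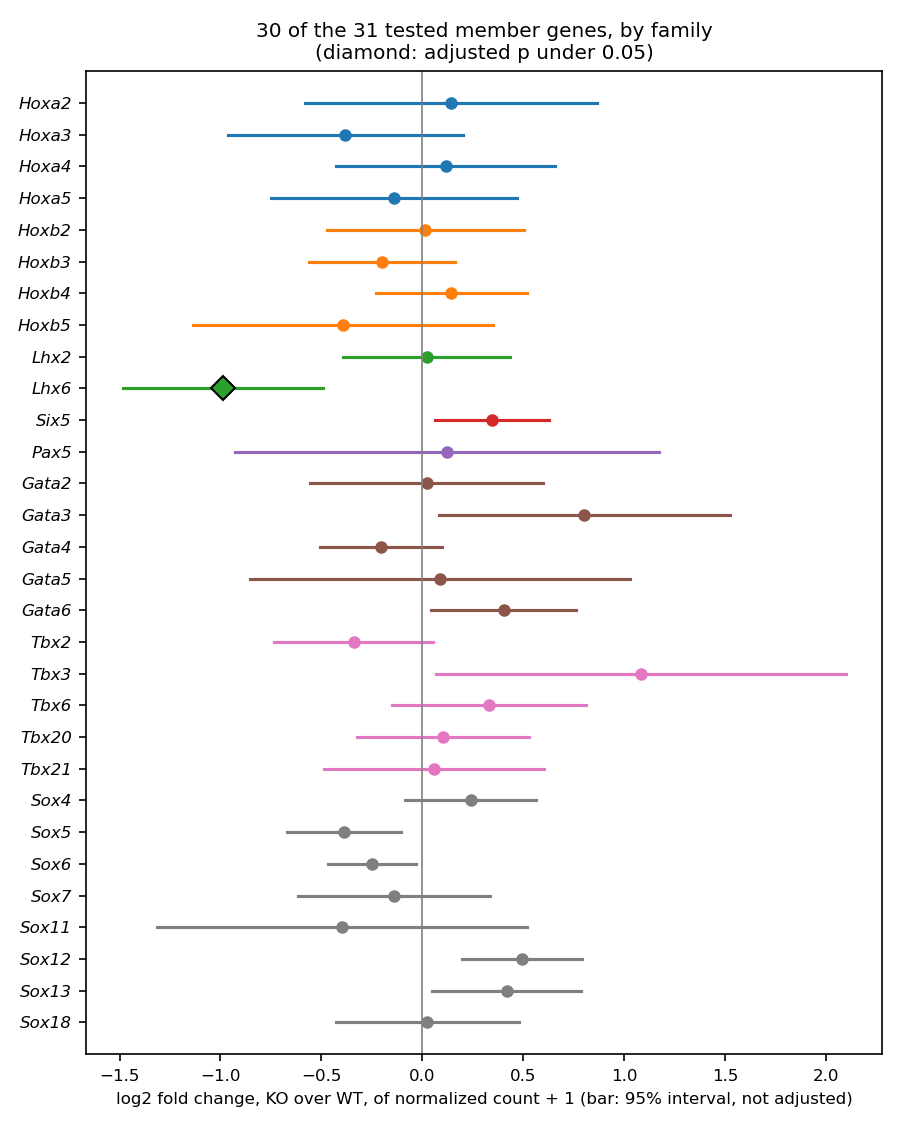
Log2 fold change, KO over WT, of 30 of the 31 tested genes (points) with the unadjusted 95% interval (bars), coloured by family; the diamond marks the gene past the threshold. Lhx6 lies at −0.99 and the largest positive value, 1.08 for Tbx3, has an interval from 0.07 to 2.10.

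Lhx6 was lower in the KO livers. It encodes a LIM-homeodomain factor known for the specification of cortical interneurons and for the development of craniofacial mesenchyme. Its level ran from 129 to 303 normalized counts in WT, with a median of 164, and from 65.0 to 129 in KO, with a median of 92.1. Every KO liver lay below every WT liver, by a narrow margin: the highest KO liver, KO 2, held 128.7 and the lowest WT liver, WT 2, held 129.2. This held for 1 of the 31 genes and for 1.61% of all tested genes, and the reverse, every KO liver above every WT liver, for 0 of the 31 and 1.28% of all. The means were 190 ± 70.9 in WT and 92.7 ± 23.7 in KO (SD, n = 6), a 1.98-fold fall (log2 fold change −0.99, SE 0.230, limma adjusted p = 0.0331). The WT spread came mainly from WT 1, at 303, and WT 4, at 248. The call held in edgeR (adjusted p = 0.0321) and DESeq2 (adjusted p = 0.00118). It was lost in limma without WT 1 (adjusted p = 0.0617), WT 3 (0.0579), WT 4 (0.0676), KO 1 (0.0749), KO 4 (0.0601) or KO 5 (0.0570), and the log2 fold change then lay between −1.03 and −0.84. Lhx6 lies on the minus strand of chromosome 2 from 36081953 to 36105408 (GRCm38), and 104 of its 4805 exonic bases are shared with Gm27953, a small RNA gene on the same strand.

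**Figure D2:**
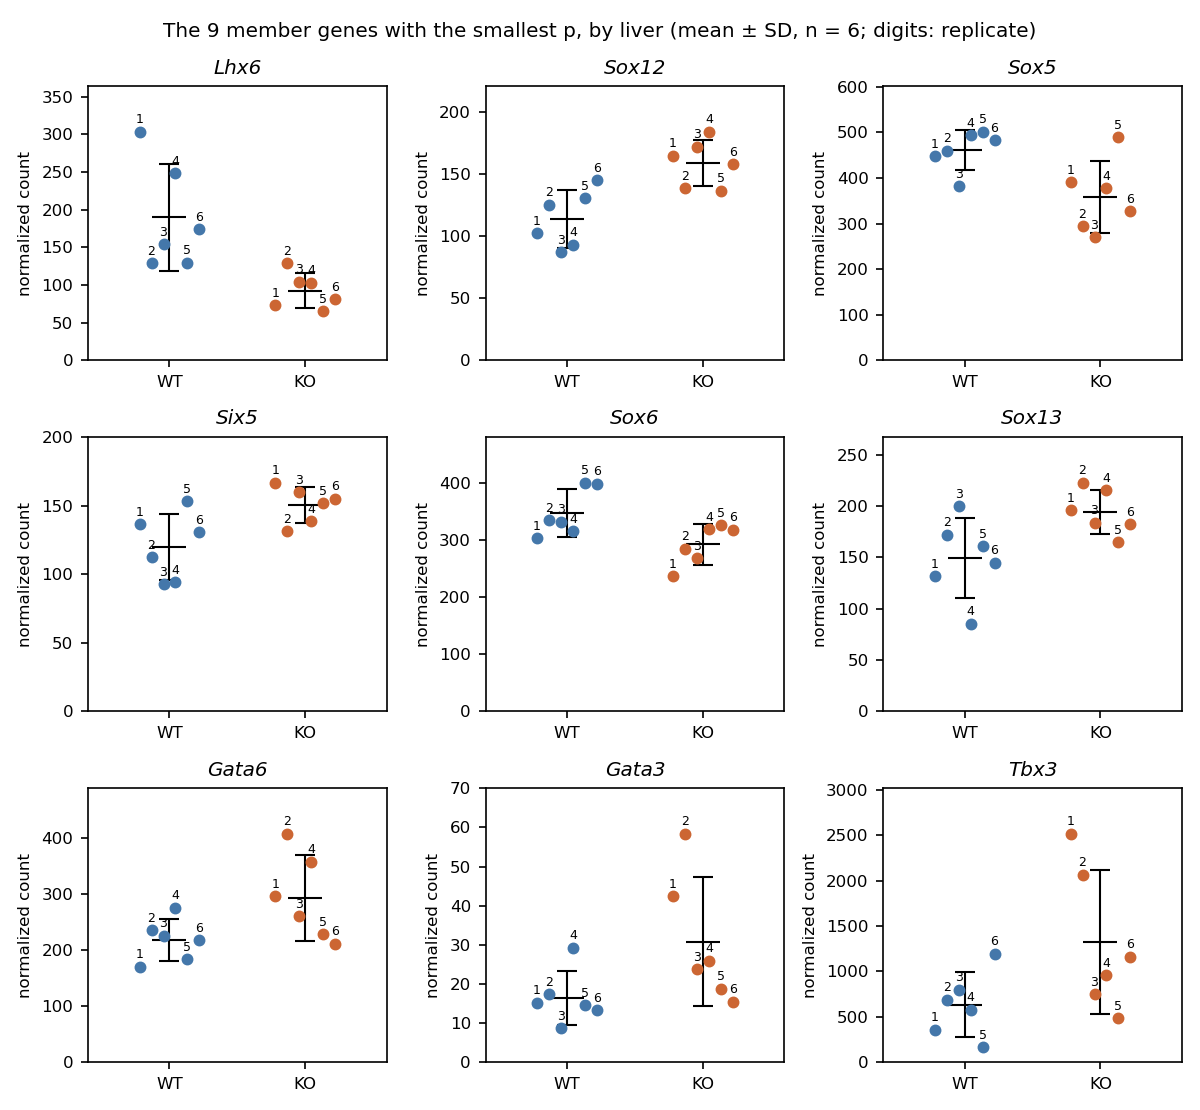
Normalized counts of the 9 genes with the smallest p in each liver (points; digits give the replicate), with the mean and SD of 6 livers per genotype (black). The Lhx6 ranges do not overlap, and those of the other 8 genes do.

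The other LIM-homeobox genes did not pass. Lhx2, which restrains stellate cell activation, averaged 92.1 ± 21.8 in WT livers and 94.2 ± 25.3 in KO livers (limma adjusted p = 0.967), with ranges of 72.6 to 129 and 66.3 to 126. The 8 stellate cell markers were between 11655 and 14846 in sum in WT and between 9001 and 13984 in KO, and 0 of 8 passed. KO 1 and KO 2, at 9001 and 10008, lay below the WT range and the other KO livers within it. All 8 were below 0 on the log2 scale, with a median of −0.13, where 51.8% of all tested genes were above 0. The 8 were measured in the same livers and are not separate results. A fall of these markers was not shown. In bulk tissue fewer cells of a type and less RNA per cell cannot be told apart. The interval of the Lhx2 difference, −0.39 to 0.43 on the log2 scale, did not reach the −0.99 of Lhx6. Lhx9, a regulator of gonad formation, held 13 reads in the WT livers together and 12 in KO.

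The SoxC genes Sox4, Sox11 and Sox12 encode closely related activators of progenitor cells. Sox12 stood nearest to a rise. It ran from 86.8 to 145 normalized counts in WT, with a median of 114, and from 137 to 184 in KO, with a median of 161. Of the 6 KO livers 4 lay above all WT livers, while KO 2 and KO 5, at 139 and 137, lay below WT 6, at 145. The means were 114 ± 23.1 and 159 ± 18.6 (SD, n = 6; log2 fold change 0.49, SE 0.137, limma adjusted p = 0.0598). Sox12 passed in DESeq2 (adjusted p = 0.0188) and in limma without WT 6 (adjusted p = 0.0275) or without WT 6 and KO 2 together (adjusted p = 0.0269, log2 fold change 0.61). It did not pass in edgeR (adjusted p = 0.0704), and its limma adjusted p was 0.204 when runs of neighbouring animal numbers formed the blocks of the fit. In that fit WT 2 and WT 3 formed a block with no KO liver, so they added nothing to the genotype contrast. Sox12 is a gene of 1 exon on the minus strand of chromosome 2, from 152393611 to 152398063. Sox4 averaged 31.9 ± 5.56 in WT livers and 37.6 ± 4.62 in KO livers, and Sox11 15.2 ± 7.24 and 12.5 ± 8.03 (limma adjusted p = 0.378 and 0.632). Sox4 shares 2616 of its 4795 exonic bases with a long noncoding RNA gene on the opposite strand, and whether counting used strand is not stated in these sources.

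The stretches before the start sites of Lhx6 and Sox12 are shown because these genes had the smallest p, and CG content because CG-rich starts are the typical setting of Polycomb targets. Hoxb4 is shown beside them as a Hox gene that did not pass, and Sox5 as a gene with a CG-poor start. Each is given 5′ to 3′ on the gene's own strand, from RefSeq on GRCm38.p6, with every CG dinucleotide in capitals.
Lhx6: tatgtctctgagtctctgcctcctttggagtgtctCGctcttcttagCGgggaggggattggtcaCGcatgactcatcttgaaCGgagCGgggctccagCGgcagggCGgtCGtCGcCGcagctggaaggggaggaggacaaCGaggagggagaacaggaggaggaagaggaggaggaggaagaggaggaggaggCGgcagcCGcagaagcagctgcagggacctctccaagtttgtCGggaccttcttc
Sox12: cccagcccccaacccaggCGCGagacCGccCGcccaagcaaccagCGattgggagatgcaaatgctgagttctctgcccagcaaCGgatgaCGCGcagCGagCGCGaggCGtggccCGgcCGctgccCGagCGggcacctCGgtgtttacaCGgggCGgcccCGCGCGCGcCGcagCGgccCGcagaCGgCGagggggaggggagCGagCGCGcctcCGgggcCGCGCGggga
Hoxb4: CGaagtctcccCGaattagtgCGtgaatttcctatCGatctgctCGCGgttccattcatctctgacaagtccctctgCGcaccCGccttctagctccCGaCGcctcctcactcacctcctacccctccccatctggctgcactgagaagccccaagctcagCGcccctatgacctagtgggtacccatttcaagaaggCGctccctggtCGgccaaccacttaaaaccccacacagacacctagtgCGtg
Sox5: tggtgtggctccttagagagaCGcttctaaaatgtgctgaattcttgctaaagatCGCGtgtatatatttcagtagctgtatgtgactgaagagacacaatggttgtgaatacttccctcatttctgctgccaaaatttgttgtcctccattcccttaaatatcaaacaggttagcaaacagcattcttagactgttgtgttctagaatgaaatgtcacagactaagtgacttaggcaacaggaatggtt
The Lhx6 stretch is chr2:36105409-36105658, minus strand, with 14 CG in 250 bases. The Sox12 stretch is chr2:152398064-152398296, minus strand, with 35 CG in 233 bases. Hoxb4 begins after chr11:96318017-96318266, plus strand, which holds 14 CG in 250 bases. The Sox5 stretch, chr6:143947107-143947356 on the minus strand, holds 3 CG in 250 bases and lies before a start site inside the longer Sox5 gene model. By these letters Sox12 had the densest CG of the 4, and Hoxb4, with a limma adjusted p of 0.674, had as many CG as Lhx6.

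Windows from 250 bases before to 50 after the start were listed by RefSeq for 42 of the 62 genes. A gene was counted as CG-rich where any of its windows had over 50% G and C and an observed over expected CG ratio of at least 0.6. Of the 4 genes printed, the window at the site shown passed this rule for Sox12. It failed it for Lhx6, with a ratio of 0.579, for Hoxb4, with 0.593, and for Sox5. These results depend on the 50 bases after the start. In the printed stretches alone the ratio was 0.643 for Lhx6 and 0.760 for Hoxb4, with 61.6% and 58.0% G and C, which meets both limits. For Sox5 it was 0.308. Lhx6 counted as CG-rich through another of its 3 windows, at a start inside the gene. The rule held for 22 of the 42 genes, or 52.4%, and for 35.8% of all 27025 genes listed. The families differed: it held for 2 of 11 Hox genes, or 18.2%, which is below the share of all genes. It held for 3 of 4 Gata, 6 of 9 Sox, 5 of 8 Tbx and 2 of 3 Lhx genes. Among tested genes the share was 70.0% for the 20 family genes with a window and 68.0% for all. Among genes below the filter it was 36.4% for 22 family genes and 29.2% for all. At least 1 CG, searched as these letters, which read the same on both strands, stood in all 53 windows of the family genes and in 94.6% of all 32851 windows. These shares are a description of the letters in these windows.

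Within the SoxD group, Sox5 and Sox6, partners in cartilage formation, were lower on average in KO and Sox13 higher, and 0 of the 3 passed. Sox5 ran from 382 to 501 normalized counts in WT, with a median of 471, and from 270 to 489 in KO, with a median of 352. Of the KO livers 4 lay below every WT liver, and KO 5, at 489, lay near the top of the WT range. The log2 fold change was −0.39 (SE 0.130, limma adjusted p = 0.102), and without KO 5 it was −0.48 and passed (adjusted p = 0.0366). Sox6, which also silences embryonic globin in erythroid cells, averaged 348 ± 42.1 in WT livers and 293 ± 35.4 in KO livers (limma adjusted p = 0.167). Sox13 averaged 149 ± 39.1 in WT and 194 ± 21.8 in KO (limma adjusted p = 0.168), with WT 3, at 199.98, above 4 of the 6 KO livers. Sox5 shares 1330 of its 14376 exonic bases with an antisense gene.

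The SoxF genes Sox7 and Sox18, which specify endothelium, showed no difference past the threshold. Sox18 averaged 117 ± 30.8 in WT livers and 119 ± 30.2 in KO livers, and Sox7 101 ± 33.9 and 88.7 ± 17.5 (limma adjusted p = 0.964 and 0.764). In both genes the lowest WT liver was WT 6, at 76.3 and 54.3, and the lowest KO liver was KO 1, at 75.6 and 57.0. Gata2, a factor of endothelium and blood progenitors, had the same lowest livers, with 20.02 in WT 6 and 19.7 in KO 1. The 8 sinusoidal endothelium markers summed to 8286 in WT 6 and 6041 in KO 1, the lowest of each genotype, against 10863 to 13964 in the other WT livers and 10227 to 12156 in the other KO livers. Of these 8 markers 0 passed, 6 were lower and 2 higher in KO, where 51.8% of all tested genes were higher on the log2 scale. The part of endothelial content in these levels was not tested.

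**Figure D3:**
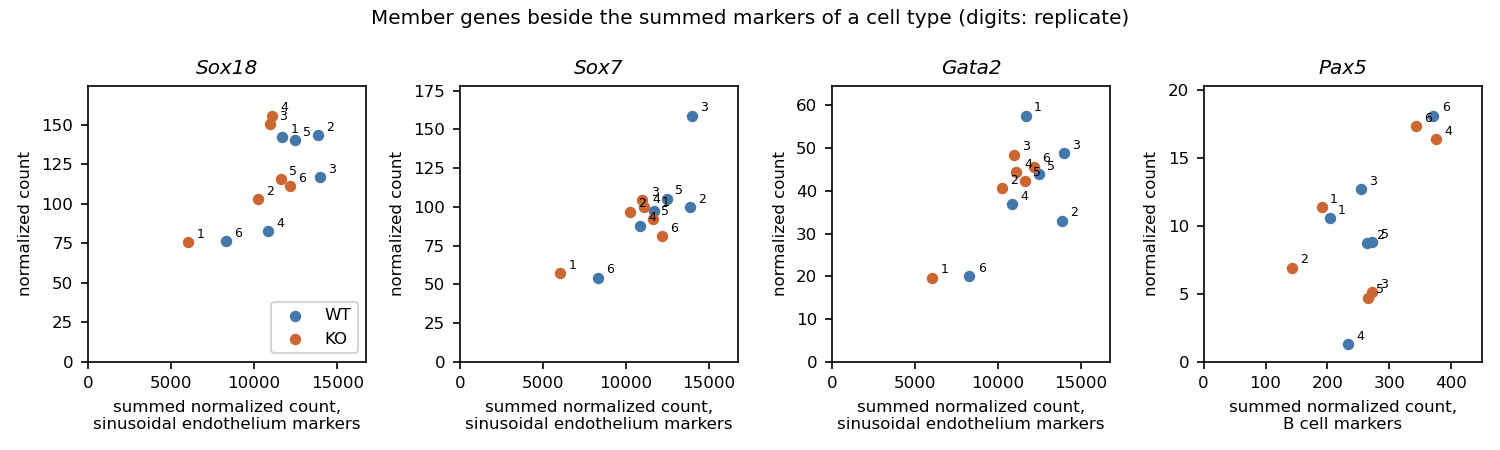
Normalized counts of Sox18, Sox7 and Gata2 against the summed sinusoidal endothelium markers, and of Pax5 against the summed B cell markers, in each liver (digits give the replicate; both axes linear, from 0). WT 6 and KO 1 lie at the lower left in the endothelial panels.

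The Gata genes include endoderm and heart factors (Gata4, Gata5, Gata6) and blood factors (Gata1, Gata2, Gata3), and 0 of the 5 tested passed. Gata4, which sets the sinusoidal identity of liver endothelium, ran from 402 to 694 normalized counts in WT, with a median of 522, and from 326 to 536 in KO, with a median of 490 (log2 fold change −0.21, limma adjusted p = 0.417). Gata6 ran from 170 to 275 in WT, with a median of 221, and from 211 to 407 in KO, with a median of 278 (log2 fold change 0.40, limma adjusted p = 0.170). The 3 KO livers above every WT liver were KO 1, KO 2 and KO 4, at 295, 407 and 357. Without KO 2 the log2 fold change of Gata6 was 0.30 (limma adjusted p = 0.272). Gata3, the factor of T helper 2 cells and innate lymphoid cells, was highest in the KO livers KO 1 and KO 2, at 42.5 and 58.4 normalized counts, against 8.78 to 29.3 in WT (log2 fold change 0.80, SE 0.334, limma adjusted p = 0.174). Without KO 2 it was 0.59 (limma adjusted p = 0.281). The 8 T and NK cell markers summed to 186 in KO 2, the lowest of the KO livers, and to 349 in KO 1. The other KO livers lay between 252 and 352. Of the 8 markers 0 passed and 7 were above 0 on the log2 scale, where 51.8% of all tested genes were above 0. The part of lymphocyte content in the Gata3 level was not tested. Gata2 measured 40.05 ± 13.1 in WT and 40.2 ± 10.4 in KO (limma adjusted p = 0.977). Gata5 measured 6.61 ± 3.17 in WT and 7.73 ± 5.81 in KO (limma adjusted p = 0.935). KO 2 alone held 18.8, and without it the log2 fold change turned from 0.09 to −0.19 (limma adjusted p = 0.823). Gata1, the master factor of red cell precursors, was below the filter with 27 reads in WT and 23 in KO; the 7 erythroid markers summed to between 5909 and 30997 in WT and between 5368 and 17845 in KO, and 0 passed.

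Of the 5 tested T-box genes 0 passed. Tbx3, which drives hepatoblast proliferation and is a Wnt target in pericentral hepatocytes, had the largest positive log2 fold change of the 31 genes, with livers spread widely in both genotypes. It ran from 170 to 1195 normalized counts in WT, with a median of 634, and from 490 to 2514 in KO, with a median of 1061. Only KO 1 and KO 2, at 2514 and 2066, exceeded all WT livers. The log2 fold change was 1.08 (SE 0.472, limma adjusted p = 0.193), and 0.91 without KO 2 (limma adjusted p = 0.298). Tbx2, its paralogue, lay the other way at 130 ± 29.4 in WT livers and 102 ± 22.6 in KO livers (limma adjusted p = 0.290). Tbx20, a heart factor, measured 135 ± 26.97 and 149 ± 43.5, and Tbx6, a factor of paraxial mesoderm, 16.8 ± 4.54 and 20.8 ± 3.203 (limma adjusted p = 0.814 and 0.412). Tbx21, or T-bet, which directs T helper 1 and NK cells, measured 14.9 ± 4.31 and 15.7 ± 5.21 (limma adjusted p = 0.927).

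Low-numbered Hoxa and Hoxb genes were the Hox genes with enough reads to test, and 0 of those described here passed. Hox genes lie in 4 clusters in the order in which they act along the body axis, with low numbers anterior. The 8 genes Hoxa2 to Hoxa5 and Hoxb2 to Hoxb5 were tested, and the 12 Hox rows with higher numbers or in the Hoxc and Hoxd clusters lay below the filter. Among the 8, 0 rose and 0 fell, and the smallest limma adjusted p was 0.435, that of Hoxa3. No upper bound of a 95% interval exceeded 0.87, that of Hoxa2. By level per kb of exon, Hoxb4 was the highest, with a mean of 17.6 normalized counts per kb in WT and 19.4 in KO. Hoxa5 followed, at 12.4 per kb in WT and 11.4 in KO, with an SD that overlapped that of Hoxb4 in WT. The other 6 followed in the order Hoxb3, Hoxa2, Hoxa4, Hoxb2, Hoxb5 and Hoxa3, from 7.88 down to 4.27 per kb in WT, and neighbours in that order overlapped within 1 SD.

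Hoxb4, which supports the renewal of blood stem cells, ran from 31.9 to 59.3 normalized counts in WT, with a median of 46.0, and from 39.6 to 67.6 in KO, with a median of 49.0 (limma adjusted p = 0.674). The ranges overlapped, with KO 6 above every WT liver and WT 4 and WT 6 below every KO liver. Hoxa5 ran from 14.0 to 31.7 in WT and from 9.32 to 32.0 in KO (limma adjusted p = 0.823). Hoxa3 lay between 19.99 and 30.5 in WT, while the KO livers spread more widely, from 10.9 to 35.7, with 4 below all WT livers and 1 above. Hoxb5 was lowest in KO 1, at 3.11 normalized counts, against 10.96 to 21.2 in the other KO livers and 12.7 to 19.4 in WT (limma adjusted p = 0.548). Hoxb3 averaged 33.5 ± 5.18 in WT livers and 29.3 ± 6.30 in KO livers, Hoxb2 21.8 ± 4.78 and 22.6 ± 7.09, and Hoxa2 12.8 ± 7.33 and 12.7 ± 2.53. Of the tested family genes 13 share exonic bases with a gene on the opposite strand, among them Hoxa3, Hoxa4, Hoxb2, Hoxb3 and Hoxb5, so their levels can hold antisense reads.

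**Figure D4:**
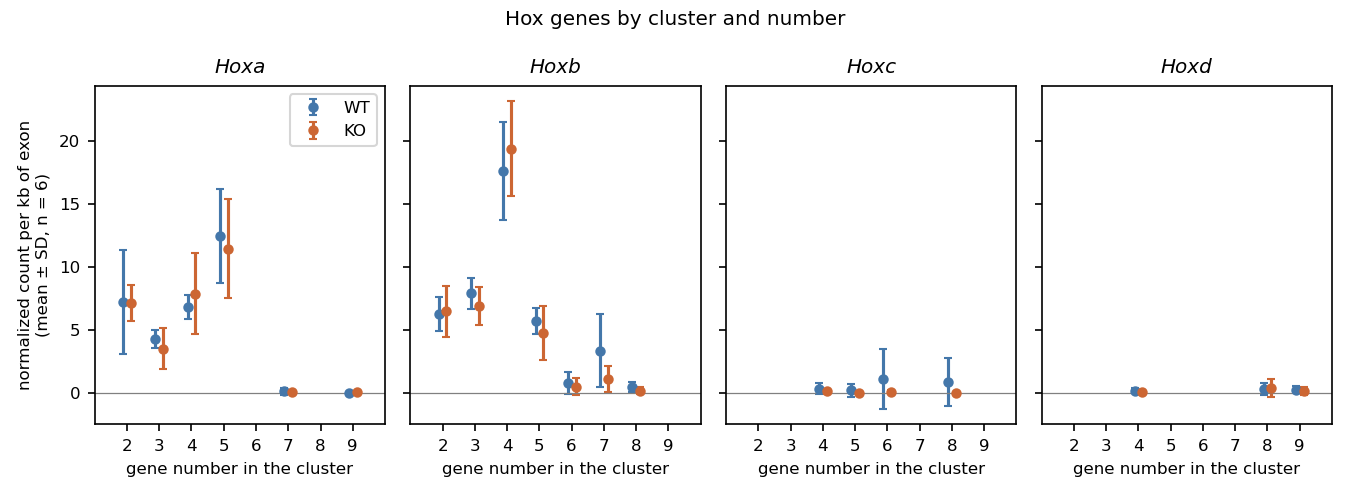
Level of Hox rows in normalized counts per kb of annotated exon (mean ± SD, n = 6 livers per genotype), by cluster and gene number. Genes numbered 2 to 5 of Hoxa and of Hoxb have higher means than the rest in both genotypes, and WT and KO error bars overlap for all of them.

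Six5, a homeobox gene next to the myotonic dystrophy kinase gene, averaged 120 ± 24.2 in WT livers and 151 ± 13.2 in KO livers. Its ranges were 92.7 to 153 and 132 to 167, with 3 KO livers above all WT livers (log2 fold change 0.35, SE 0.131, limma adjusted p = 0.140). Pax5, the B cell commitment factor, ran from 1.27 to 18.1 normalized counts in WT and from 4.71 to 17.4 in KO (limma adjusted p = 0.920). Its 3 highest livers, WT 6, KO 6 and KO 4, were also the 3 highest for the summed B cell markers, at 371, 342 and 374, where the other livers lay between 143 and 272. Of the 5 B cell markers 0 passed, and the part of B cell content in the Pax5 level was not tested.

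The 31 genes below the filter did not hold a larger share of their reads in KO than the depth did. They held 232 reads in WT and 145 in KO, so 38.5% of their reads were in KO, which had 52.7% of all reads. WT 6 alone held 105 of the 232. Without WT 6 there were 127 and 145 reads, 53.3% of them in KO with 57.7% of the depth. Summed normalized counts were 38.6 ± 32.3 in WT, 26.3 ± 13.1 in WT without WT 6 (n = 5), and 22.8 ± 4.51 in KO. The number of family rows with at least 1 read ran from 39 to 54 in WT and from 40 to 48 in KO. Thinned to the depth of the shallowest library, it was 37.7 to 52.3 in WT and 38.5 to 44.9 in KO. The highest of the 12 livers was WT 6 in both counts.

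Single genes below the filter stood at a few reads per library. Hoxb7 held 31 reads in WT and 11 in KO, of which WT 3 gave 14. Pax1, a factor of the sclerotome and thymus, held 12 and 5 reads, Tbx4, a hindlimb factor, 11 and 6, Hoxb6 9 and 6, Hoxb8 7 and 3, and Sox15 9 and 5. More reads in KO were seen for Nkx2-3, a factor of spleen and gut vessels, with 4 in WT and 8 in KO, for Six4 with 6 and 9, for Sox8 with 7 and 9, for Hoxd8 with 5 and 7, for Sox10 with 3 and 5 and for Pax8 with 3 and 5. Tbx15 held 4 and 4. The remaining 13 genes held between 2 and 9 reads each over all 12 libraries. In all, 20 of the 31 had more reads in WT, 10 more in KO and 1 the same, and without WT 6 the numbers were 10, 17 and 4, with 5 WT and 6 KO livers compared.

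Hoxc5, Hoxc6, Hoxc8 and Tbx5, a forelimb and heart factor, were found almost solely in WT 6, the liver with fat transcripts. Hoxc8 held 14 of its 15 reads there, Hoxc6 15 of 18, Hoxc5 4 of 4 and Tbx5 12 of 13. Together the 4 Hoxc rows had 36 reads in WT 6, 8 in the other 11 livers and 3 of these in KO. Hoxc8 had 0 reads in KO. In the same library Adipoq, the adiponectin gene, stood at 53.4 normalized counts and Cfd, adipsin, at 101, against at most 0.975 and 2.07 elsewhere, and the 4 mesothelium markers were also highest there, at 539 in sum against at most 445 elsewhere. The part of fat tissue or mesothelium in these reads was not tested.

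**Figure D5:**
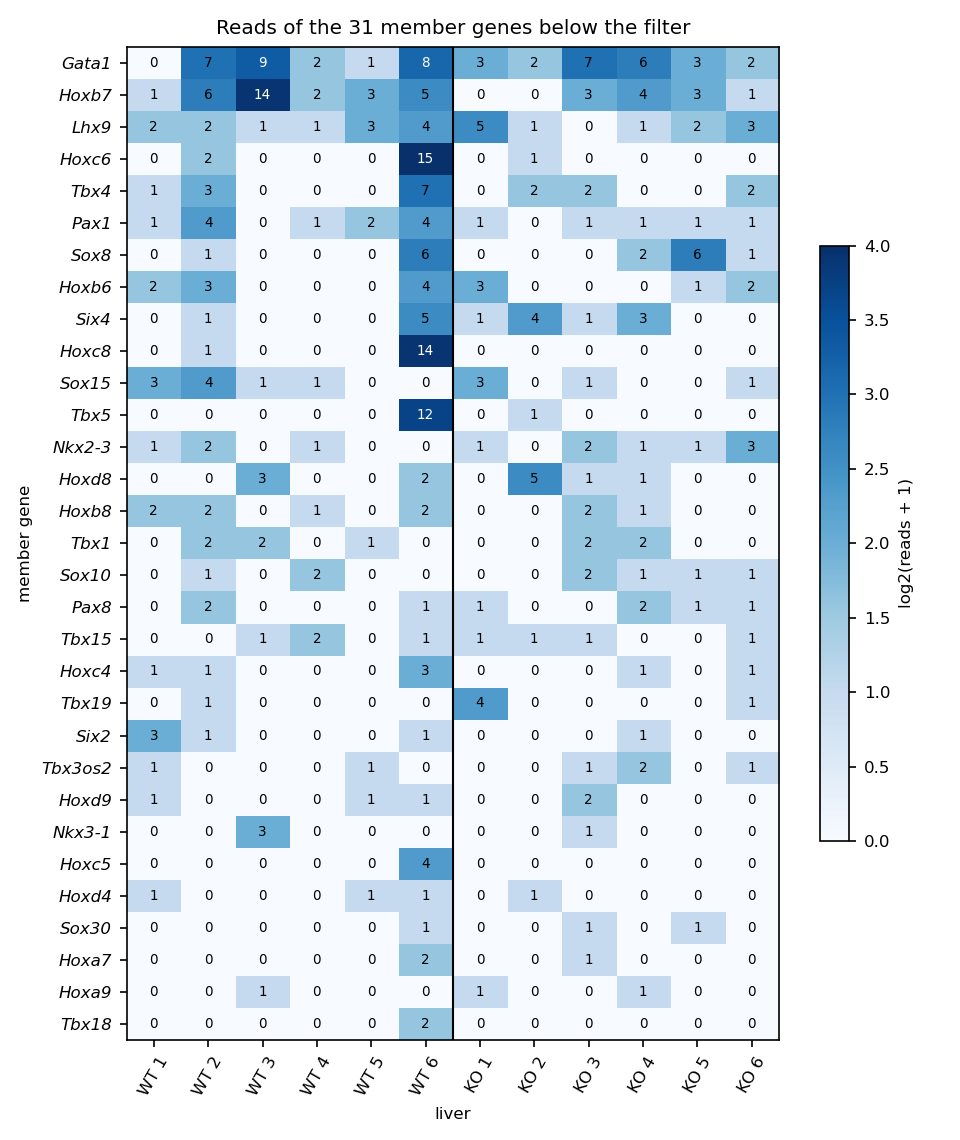
Reads of each of the 31 genes below the filter (rows) in each liver (columns; the line divides WT from KO); shade is log2(reads + 1) and the digits are reads. The column of WT 6 holds most reads of Hoxc6, Hoxc8, Hoxc5 and Tbx5.

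Among genes of the Polycomb machinery 1 passed the test. Of 41 listed genes 39 were in the data and all 39 were tested. Of these 1 rose, 0 fell and 38 did not pass, where 1.67% of all tested genes rose and 2.57% fell. Their median log2 fold change was 0.03, against 0.01 over all tested genes. Of the 39, 25 were above 0, where 51.8% of all tested genes were above 0. The gene was Kdm6b, which encodes a histone H3 demethylase that removes the PRC2 mark. Its mean was 587 ± 49.7 in WT livers and 837 ± 161 in KO livers (log2 fold change 0.49, SE 0.118, limma adjusted p = 0.0364). All WT livers lay below 5 of the 6 KO livers. Its call was lost without WT 1, WT 3, WT 4, WT 5, KO 1, KO 2, KO 3 or KO 4 (limma adjusted p up to 0.0828), without WT 6 and KO 2 together (0.0705) and with the block of animal numbers (0.0537). The PRC2 subunit genes Ezh2 and Eed did not pass, with 272 ± 49.9 and 238 ± 24.6 normalized counts for Ezh2 and 640 ± 78.5 and 582 ± 31.8 for Eed (limma adjusted p = 0.407 and 0.390). DESeq2 called 5 genes of the list higher and 0 lower: Kdm6b, Pcgf2, Asxl1, Bmi1 and Phc1. Its shares over all genes were 3.92% and 4.76%.

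A list of developmental factors of other families that are also classic Polycomb targets (Dlx, Irx, Fox, Pou, Meis and others) held 110 genes, of which 49 were in the table and 16 were tested. Here 0 rose, 0 fell and 16 did not pass in limma, where 1.67% of all tested genes rose and 2.57% fell. The median was 0.02 on the log2 scale, with 9 above 0 and 7 below, where 51.8% of all tested genes were above 0. The smallest adjusted p was 0.159, that of Prox1, a factor of hepatocyte and lymphatic identity, at 224 ± 90.7 in WT livers and 334 ± 98.5 in KO livers.

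Between livers of one genotype, Lhx6 varied most like Id1, a helix-loop-helix inhibitor known as a target of bone morphogenetic protein signalling, and like Stx12 and Shoc2. These 3 had the highest Pearson r of 11514 genes with a mean of at least 50, after the mean of each genotype was taken out: 0.894, 0.882 and 0.868 over 12 livers, with Spearman's rho of 0.825, 0.881 and 0.867. They were picked as the highest of a search in the same 12 libraries, which share depth and scaling, and are given as a description with no test.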

How the data were processed

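Liver RNA of 12 mice, 6 Lcorl KO and 6 WT by the genotype in the labels, was sequenced after TruSeq Standard Total RNA preparation, per the labels' protocols. DESeq2, featureCounts, STAR, FastQC and the build mm10 are named, without version or order, in the submitters' processing notes. Annotation and strand setting are not stated there. The signal that the authors deposited is gene reads divided by 1 factor per library, called normalized counts here. All values were whole multiples of 1 step per library, to a tolerance of 0.001 reads (100% of values), so whole reads were recovered. The authors' deposited comparison holds a mean signal, log2 fold changes and p-values; it was used only for checking, and DESeq2 run here gave p-values within 2.05e-06 of it.

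The main test was limma 3.58.1 (R 4.3.3), two-sided, with genotype as its only term and its trend option on, applied to log2 of the normalized count plus 1 over genes with a mean of at least 5. Alternatives were pseudocounts, filters, scalings, robust moderation, library weights, edgeR 4.0.16, DESeq2 1.42.0, a block of runs of neighbouring animal numbers (a gap of 10 starts a run), each library left out, and 2 libraries left out; reads below the filter without WT 6 were added after seeing the data. The procedure was tested on simulated counts. The family genes and lists were chosen with earlier results of these data known. Named are the tested family genes (1 is not reported here), those below the filter with a read in at least 6 libraries or at least 10 reads, list genes past the threshold, and, chosen after their values were seen, Ezh2, Eed, Prox1, Hoxc5 and the genes called by DESeq2 alone. Positions are from GENCODE M21 (GRCm38). Intervals cover the spread between livers and no multiple testing.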

Additional observations from a re-analysis of the deposited data

Results flagged for a closer look

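Of 97 groups of 6 livers, from 49 family genes with enough reads, 17 had 1 liver set apart by more than 0.625 of the range. The usual chance rate of about 1 in 20 does not hold for groups of a few reads, where 1 read in 1 liver always stands apart, so the 17 cannot be set against it. Values are normalized counts.

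WT 6, the liver with fat transcripts, was the high one in 6: Hoxc6 at 14.3 (others 0 to 1.94), Hoxc8 at 13.3 (0 to 0.972), Tbx5 at 11.4 (0 in the others), Sox8 at 5.72, Six4 at 4.77 (both 0 to 0.972) and Hoxb3 at 43.8 (30.2 to 33.1). KO 2, the liver with Reg1, was high for Gata5 at 18.8 (2.07 to 8.22) and Hoxd8 at 4.95 (0 to 0.963). It was also the sole KO liver with a read of Hoxc6 and of Tbx5, at 0.99 each, and the sole one without a read of Pax1, at 0 against 0.85 to 1.04.

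In KO 1, Gata2 was low at 19.7 (40.6 to 48.5) and Sox15 high at 3.11 (0 to 0.913). Hoxb4 was high in KO 6 at 67.6 (39.6 to 49.3), Sox8 in KO 5 at 5.65 (0 to 1.93) and Hoxb7 in WT 3 at 13.7 (1.18 to 5.83). Tbx6 was low in WT 1 at 8.23 (16.5 to 20.5). The values below 6 rest on 6 reads or fewer.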

How the results depend on the processing

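Over 26 alternatives, 776 of 787 values of the 31 tested family genes kept their direction where called and their side of the threshold. The exceptions were 6 for Lhx6, given above, 4 for Sox12, which passed also with library quality weights (adjusted p = 0.0322, limma), and 1 for Sox5. The other 28 genes passed under none of the 26; 18 of the 31 kept their sign in all. Genes called higher in KO among the families numbered 1 with library weights, with DESeq2 and without WT 6 and KO 2, each time Sox12. With 1 library left out, 0 to 1 were higher, 0 to 1 lower and their median log2 fold change was −0.03 to 0.12; without KO 5 the lower gene was Sox5, not Lhx6. The cause of these changes was not tested.

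Over all genes, 240 were higher and 369 lower, 386 higher with library weights, 597 and 726 with DESeq2, 62 and 101 with the block of animal numbers, and 402 higher without WT 6 and KO 2. Leaving out 1 library gave 74 to 402 higher and 146 to 570 lower. The block fit drew its genotype contrast from fewer livers, because WT 2 and WT 3 formed a run without a KO liver. Polycomb machinery genes higher in KO numbered 5 with DESeq2, 0 with the block and 2 without WT 6 and KO 2. With 1 library left out they numbered 0 to 3, with 0 to 1 lower, and other developmental factors 0 to 1 higher and 0 lower. No paired analysis was possible because the labels give no number shared between genotypes. At these depths a gene below the filter rests on at most 50 reads in all, so small differences there were not detectable.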

Other observations

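The genes that varied most like 5 other family genes between livers of one genotype were found by the same search as for Lhx6, over 11514 genes and 12 livers, and are given as values only. Sox6 varied most like Jarid2, a PRC2 accessory subunit gene (Pearson r = 0.894, Spearman's rho = 0.846). Next came Ppie (r = 0.883, rho = 0.846) and then Cdyl, a chromodomain gene (r = 0.875, rho = 0.874). The highest were Rufy1 for Sox12 (0.865, 0.867), Gm4951 for Sox5 (0.903, 0.888), Dyrk1b for Six5 (0.887, 0.825) and B3glct for Sox13 (0.870, 0.587). Next by Pearson r came Rbm12b1 (0.844) and Mir6236 (0.843) for Sox12, and Tec (0.857) and Oaz1 (0.842) for Sox5. For Six5 they were Wdr6 (0.872) and Scai (0.844), and for Sox13 Tmem164 (0.836) and Tmbim4 (0.826). Of all these genes only Jarid2 was on the Polycomb machinery list.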
